A study of Homo sapiens with 6 samples.

Results

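A549 is an established human lung adenocarcinoma cell line. The arrays described here are the 3 of the 6 in the series that were made from A549 lines grown without doxycycline (DOX), chosen because their titles end in (-). Each line was made with a lentiviral vector that carries a short hairpin RNA under tetracycline control. The line shNTC carries a non-targeting hairpin, and shCNOT3-1 and shCNOT3-2 carry 2 different hairpins against CNOT3, a subunit of the CCR4-NOT complex. The other 3 arrays come from the same lines after 1 ug/ml DOX for 72 hours, which switches the hairpin on, and they serve here only as a second array of each line. Whether a line was 1 clone or a pool of cells is not given in the sources used here. There was 1 array per line and state, so differences among the 3 uninduced arrays have no replicate check, and no test was made from those 3 arrays alone. Values below are probe set intensities on a linear scale and, unless said otherwise, are given in the order shNTC, shCNOT3-1, shCNOT3-2.

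A549 cells are used as a model of lung adenocarcinoma and, with reservations, of the alveolar type 2 cell, the surfactant-making cell of the air sac. They carry an inactivating change in KEAP1, the adaptor that normally marks the transcription factor NRF2 for destruction, so that NRF2 stays active and drives genes of glutathione synthesis, NADPH production and carbonyl reduction. NRF2 binds as a heterodimer with small MAF proteins to the antioxidant response element, found upstream of many of these genes. CCR4-NOT shortens the poly(A) tails of messenger RNAs and so starts their decay. The uninduced lines are the baseline against which the series read the effect of each hairpin, and the question here is what that baseline looked like and how far it differed from line to line.

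Genes of the NRF2 program were among the brightest on all 3 arrays, so the promoters of 4 of them are shown with their match to the core of the antioxidant response element. The letters searched were TGACNNNGC on both strands, in the 250 bases upstream of each gene start in RefSeq's table for GRCh38.p14. Of 28 NRF2 target genes measured, 21 had a promoter window and 7 of these (33.3%) held the letters, namely CBR1, EPHX1, GCLM, ME1, PGD, TXNRD1 and UGT1A6. Over all genes with a window the share was 13.2%, and over all 35116 windows it was 10.9%. GCLM encodes the modifier subunit of the enzyme that starts glutathione synthesis (chr1:93909431-93909680, minus strand). ME1 encodes malic enzyme, a source of NADPH (chr6:83431052-83431301, minus strand). PGD encodes the NADPH-making dehydrogenase of the pentose phosphate pathway (chr1:10398814-10399063, plus strand). TXNRD1 encodes thioredoxin reductase, shown for 1 of its start sites (chr12:104286782-104287031, plus strand). Each sequence runs 5′ to 3′ along the gene's strand and ends just before the start, and the capitals mark the match:
GCLM: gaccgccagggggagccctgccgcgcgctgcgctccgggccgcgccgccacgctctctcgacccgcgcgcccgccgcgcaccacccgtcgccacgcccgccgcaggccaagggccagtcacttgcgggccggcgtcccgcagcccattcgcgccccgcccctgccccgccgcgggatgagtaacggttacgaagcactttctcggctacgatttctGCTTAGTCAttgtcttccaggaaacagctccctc
ME1: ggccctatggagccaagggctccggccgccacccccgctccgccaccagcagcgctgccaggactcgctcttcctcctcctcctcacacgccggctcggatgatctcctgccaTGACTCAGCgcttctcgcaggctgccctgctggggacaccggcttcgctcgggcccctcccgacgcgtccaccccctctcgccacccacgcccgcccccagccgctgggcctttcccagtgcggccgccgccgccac
PGD: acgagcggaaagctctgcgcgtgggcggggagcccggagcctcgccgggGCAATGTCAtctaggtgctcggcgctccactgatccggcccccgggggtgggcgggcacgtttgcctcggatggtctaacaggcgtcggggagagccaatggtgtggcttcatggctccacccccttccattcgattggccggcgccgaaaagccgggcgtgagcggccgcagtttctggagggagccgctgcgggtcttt
TXNRD1: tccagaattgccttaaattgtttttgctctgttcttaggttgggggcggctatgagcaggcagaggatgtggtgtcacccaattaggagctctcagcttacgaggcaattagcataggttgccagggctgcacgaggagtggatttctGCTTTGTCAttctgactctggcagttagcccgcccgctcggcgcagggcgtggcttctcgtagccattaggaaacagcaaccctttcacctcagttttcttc
The match began at position -34 in GCLM, -137 in ME1, -201 in PGD and -102 in TXNRD1, counted back from the gene start. In GCLM, PGD and TXNRD1 it lay on the opposite strand, so that the printed strand shows its reverse complement. A match describes the letters only and is not a measured binding site.

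Each uninduced array gave readings on 54675 probe sets, of which 62 were controls. A gene was represented by its brightest probe set annotated to that gene alone, which gave 19775 genes. The 7136 genes whose mean log2(intensity + 1) over the 6 arrays lay under 5.96, an intensity of 61.3, were treated as too dim to compare, and 12639 genes (63.9%) were compared between lines. The trimmed mean intensity was 500.1 on each array. The median probe set read 69.9, 72.8 and 64.9, and 269, 247 and 376 probe sets lay at the floor of 1, so that the shCNOT3-2 array was the dimmest at its low end. RNA integrity, read as 3′ over 5′ probe set intensity, gave ratios of 0.98, 0.98 and 1.09 for GAPDH and 1.58, 1.33 and 1.36 for ACTB.

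The absolute profile was nearly the same in the 3 lines. An intensity of at least 200 was reached by 9720, 9673 and 9554 genes, at least 1000 by 5233, 5103 and 5187, and at least 10000 by 559, 548 and 561. Of the 10082 genes that reached 200 in any line, 9246 (91.7%) did so in all 3, and 501 of 616 genes (81.3%) did so at 10000. Among the 100 brightest genes of each line, 83 were shared by all lines, out of 115 in any line. The shared genes included 37 ribosomal proteins, 5 translation factors, 8 NRF2 targets, 4 glycolytic enzymes, 3 epithelial genes and 2 heat shock proteins. Probe sets differ in affinity, so an intensity ranks a gene only roughly against other genes and is not an abundance.

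Outside ribosomal proteins and translation factors, the 20 brightest genes were of several kinds. TMSB10, which encodes an actin-sequestering thymosin, read 50632, 49114 and 47620. AKR1B10, an aldo-keto reductase that reduces retinal and lipid aldehydes, read 51821, 45145 and 45879. FTL, the light chain of the iron store ferritin, read 51448, 43244 and 46694. The keratin KRT18 of simple epithelia read 48480, 43062 and 42729, and the mitochondrial chaperonin HSPD1 read 43802, 36810 and 38553. In each of these 5 genes the shNTC array was the highest, and the lines lay well within 2-fold of each other. The same held in reverse for ACTB, cytoplasmic beta-actin, at 36896, 42185 and 41024, and ANXA1, a phospholipid-binding annexin, at 35014, 38376 and 41001, where shNTC was the lowest. The rest of the 20 brightest were TMSB4X, TUBA1B, HUWE1, UBB, AKR1C3, FTH1P5, S100A6, COX2 (the mitochondrially encoded oxidase subunit), PPIA, LDHA, HSP90AA1, PRDX1 and LDHB. FTL, KRT18, TUBA1B, HUWE1, FTH1P5, ACTB, COX2, PPIA and LDHB were read by probe sets of the _x_at type, whose probes can match other transcripts, and are uncertain to that extent. FTH1P5 is a ferritin heavy chain pseudogene and HUWE1 a ubiquitin ligase. For HUWE1 the probe set used read 45005, 40261 and 44829, and its next brightest one read 2286, 2525 and 2346.

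**Figure D1:**
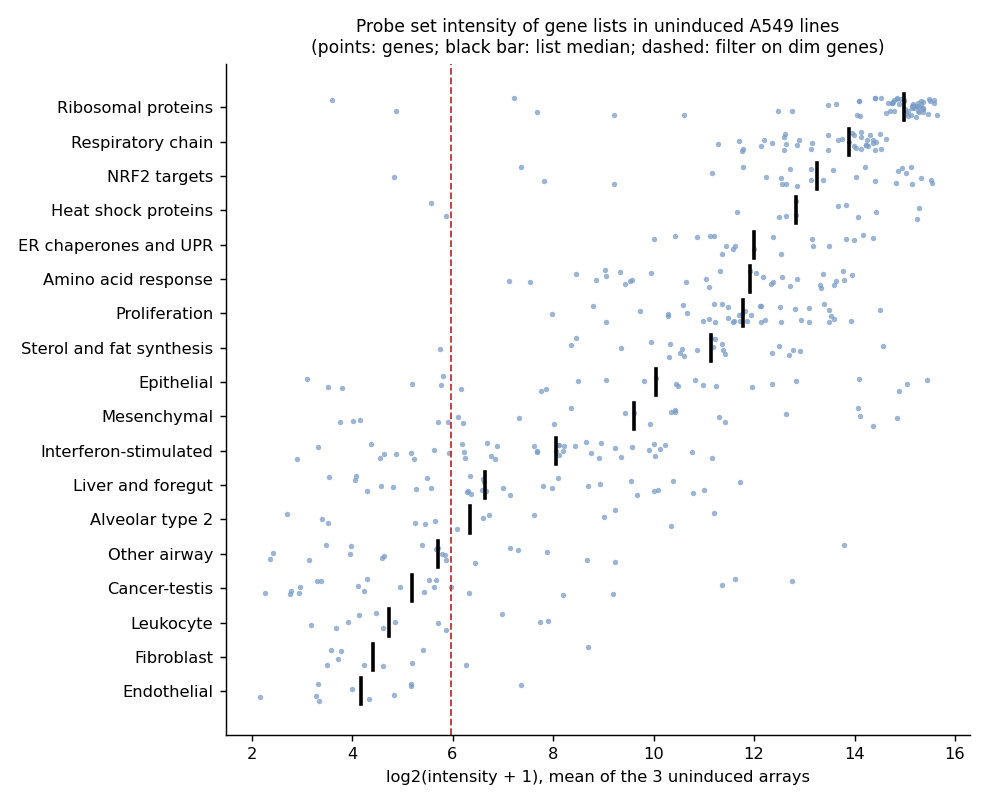
Intensity of the members of 18 gene lists, as mean log2(intensity + 1) over the 3 uninduced arrays. Each point is 1 gene, the black bar is the median of the list and the dashed line is the level of 5.96 under which genes were called too dim. Ribosomal protein, respiratory chain and NRF2 target genes lie far to the right, and most endothelial, fibroblast and leukocyte markers lie left of the line.

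NRF2 target genes formed a bright and even group. Of 31 genes on the list, 28 had a probe set, 24 read at least 1000 in all lines and 13 read at least 10000 in all lines. Their median intensity was 10100, 8970 and 10900, where the median of all genes was 188, 183 and 175. NQO1, a quinone reductase, read 32818, 28824 and 33357, and AKR1C1, which reduces steroids and xenobiotic ketones, read 35727, 31219 and 32686. TXNRD1 read 30261, 27903 and 29156, PGD read 21588, 21077 and 22793, and GCLM read 12942, 11770 and 11649. For each of these genes the 3 lines lay close together. SLC7A11, the cystine importer, read 10510, 9986 and 11575, and ME1 read 9665, 8051 and 9419. Dim members were TRIM16L at 164, 171 and 156 and the glucuronosyltransferase UGT1A6 at 38.3, 12.8 and 42.1, the latter under the filter. None of the 27 NRF2 targets above the filter differed 2-fold between any lines. Over all genes compared 6.14% did, most of them dim. Among genes with a mean intensity of 2610 to 50800 the share was 0.158%. The lack of 2-fold differences therefore does not set this list apart from other bright genes. With the mean of all probe sets of a gene in place of the brightest, 1 NRF2 target passed 2-fold. The widest range in the list was 0.62 on the log2 scale, in the drug exporter ABCC3, which read 5607, 3646 and 5560. NFE2L2, which encodes NRF2 itself, read 5317, 5591 and 5609, and KEAP1 read 1809, 1815 and 1866.

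Aldehyde-oxidizing enzymes were bright as well. ALDH1A1, which makes retinoic acid from retinal, read 32032, 31181 and 33479, and ALDH3A1 read 7827, 7104 and 8304. CYP24A1, which breaks down active vitamin D, read 10064, 12776 and 14557. The lines were ordered in CYP24A1 with shNTC lowest, and the range of 0.53 was short of 2-fold. None of the 11 members above the filter, of 13 on the list, differed 2-fold, and 1 did with the mean of probe sets. Over all genes compared 6.14% did by the brightest probe set, from 26.1% in the dimmest of 5 equal bins to 0.158% in the brightest.

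The lines read as epithelial cells that also carry mesenchymal transcripts. The simple-epithelium keratins KRT8 and KRT7 read 31560, 35036 and 34346, and 17000, 17086 and 17929. The adhesion protein E-cadherin (CDH1) read 5525, 4651 and 5508, and the junction scaffold TJP1 read 6436, 8371 and 7211. EPCAM, an epithelial surface protein, read 219, 184 and 306, and CLDN4 and ESRP1 lay under the filter. Of 25 epithelial genes with a probe set, 13 read at least 1000 in all lines. On the mesenchymal side, the intermediate filament vimentin (VIM) read 21266, 20613 and 21267, the calcium-binding S100A4 read 29588, 31147 and 27934, and the repressor ZEB1 read 1281, 1415 and 1451. N-cadherin (CDH2) read 249, 230 and 298, and the repressor SNAI1 lay under the filter. Past 2-fold were OVOL2, an epithelial transcription factor at 73.6, 84.1 and 27.4, and TAGLN, a smooth muscle actin-binding protein at 224, 168 and 105. Both were lowest in shCNOT3-2, and both sit near the dim end. They were 1 of 20 epithelial and 1 of 18 mesenchymal genes above the filter, where 6.14% of all genes compared passed. After quantile normalization no mesenchymal gene passed 2-fold, and with the mean of probe sets no gene of either list did.

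Markers of mature lung cells were mostly dim. Of 14 alveolar type 2 genes measured, 9 lay above the filter and 2 read at least 1000 in all lines, LPCAT1, a lecithin-remodelling enzyme, and the transcription factor ETV5. The lipid pump ABCA3 of lamellar bodies read 640, 577 and 598. Surfactant protein gene SFTPB read 166, 203 and 222 on an _x_at probe set, and its other probe sets read at most 112. SFTPD, under the filter and so not compared, read 86.6, 25.2 and 35.8. The phosphate carrier SLC34A2 lay under the filter at 4.33, 10.2 and 19.2. Past 2-fold were SFTPC at 221, 126 and 40.7 and the protease PGC at 37.6, 87.6 and 92.4. So was the lineage factor NKX2-1 at 87.0, 90.7 and 14.6, on an _x_at probe set. The other 4 probe sets of SFTPC read at most 19.8 in the uninduced lines, so its reading rests on 1 probe set. Those past 2-fold were 3 of the 9 above the filter. The share was 6.14% over all genes compared and 26.1% in the dimmest of 5 equal bins. With the mean of probe sets none of the type 2 genes passed 2-fold. Among 8 type 1 cell markers measured, 4 lay above the filter and 3 read at least 1000 in all lines. One of these, CAV1, the caveolar coat protein that many cell types make, read 9190, 10649 and 11173. AQP5 and PDPN lay under the filter.

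Most airway markers were dim, and the brightest was AGR2, a disulfide isomerase of mucus-secreting cells. AGR2 read 18658, 10483 and 14407, and its second probe set read 1060, 678 and 740, so both probe sets were highest in shNTC and lowest in shCNOT3-1. With DOX, AGR2 read 18407, 5108 and 7521, in the same order. The mucin gene MUC5B read 408, 436 and 374 and MUC5AC read 98.3, 95.6 and 69.6, while the club cell gene SCGB1A1 and the ciliated cell factor FOXJ1 lay under the filter. In this list of 21, 8 genes lay above the filter and 2 of these passed 2-fold. They were the basal keratin KRT5, at 19.8, 104 and 90.5, and DMBT1, a mucosal scavenger receptor protein, at 378, 99.4 and 104. Over all genes compared the share was 6.14%, and in the dimmest of 5 equal bins it was 26.1%. With the mean of probe sets 3 airway genes passed 2-fold.

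Several genes of liver and foregut endoderm were read in all lines. CPS1, the first enzyme of the urea cycle, read 3577, 2991 and 3601, and FOXA2, a foregut pioneer factor, read 1615, 1920 and 1786. The fibrinogen chains FGA, FGB and FGG, clotting proteins made mainly by the liver, read 1175, 957 and 961, then 1178, 641 and 713, and then 1013, 589 and 692. All 3 chains were highest in shNTC and lowest in shCNOT3-1, and none reached 2-fold by these probe sets. Second probe sets, also above the filter, read 355, 158 and 232 for FGA and 648, 300 and 430 for FGB, with differences of shCNOT3-1 minus shNTC of -1.17 and -1.11 on the log2 scale, past 2-fold in the same direction. Albumin (ALB) lay under the filter at 5.14, 7.10 and 30.4. Of 32 genes in the list, 23 lay above the filter and 2 of these passed 2-fold, where 6.14% of all genes compared did. The 2 were transferrin (TF) at 97.1, 45.7 and 115 and AFP at 122, 51.2 and 75.

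**Figure D2:**
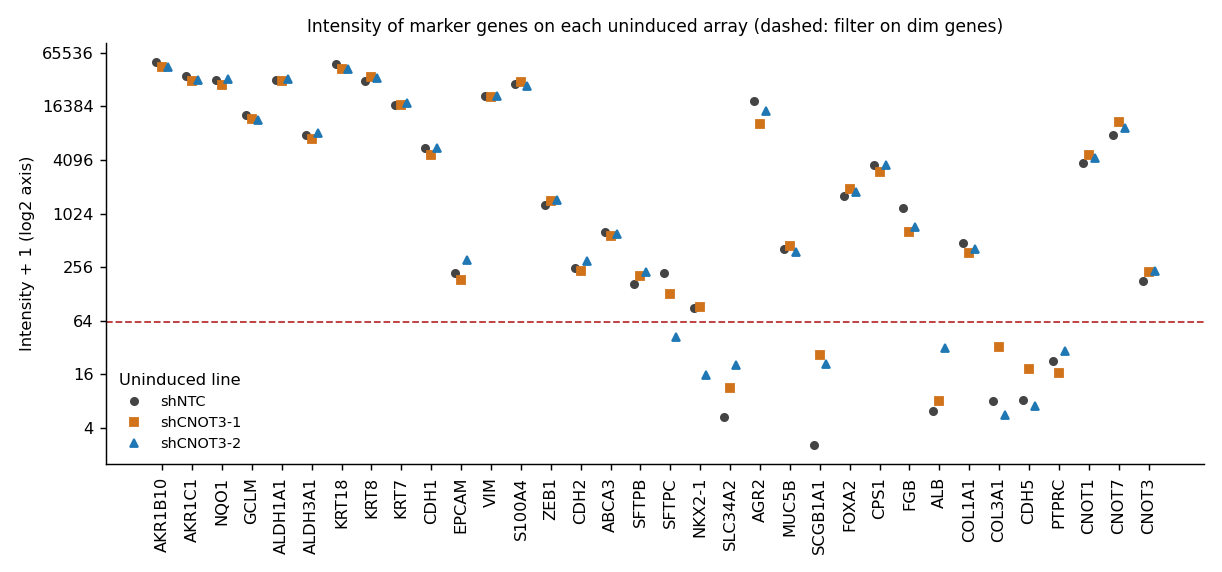
Intensity + 1 of 34 marker genes on each uninduced array, on a log2 axis, with 1 point per line and the filter on dim genes as a dashed line. Points of the 3 lines nearly coincide for bright genes such as KRT7 (17000, 17086 and 17929) and spread apart for genes near or under the line, such as SFTPC (221, 126 and 40.7) and NKX2-1 (87.0, 90.7 and 14.6).

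Most markers of cells that a pure culture should lack lay under the filter. Of 10 fibroblast markers, 8 lay under the filter, COL3A1, PDGFRA and COL1A2 among them, and their summed intensity was 719.5, 663.7 and 664.1. COL1A1 made up most of it at 477, 366 and 410 on an _x_at probe set. Of 10 endothelial markers, 9 lay under the filter, VWF, KDR and CDH5 among them. The sum was 533.0, 276.3 and 268.3, of which PECAM1 gave 277, 149 and 107. The other 4 probe sets of PECAM1 read at most 73.3. Of 12 leukocyte markers, 8 lay under the filter, PTPRC, CD3E and LYZ among them, and the sum was 858.3, 866.3 and 859.2. The brightest of them were CD79A at 252, 256 and 205 and CD14 at 223, 187 and 229. HBB, the adult globin, read 216, 156 and 138 on an _x_at probe set. The ubiquitin hydrolase UCHL1, on the neuroendocrine list, read 16472, 17172 and 17260, while SYP and INSM1 lay under the filter and CHGA, a granule protein, read 42.9, 49.8 and 46.4. Of 22 cancer-testis genes, normally silent outside the germ line, 17 lay under the filter, while MAGEA6 read 6863, 6883 and 7020 and PRAME read 3213, 3306 and 2915.

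Among genes often altered in lung cancer, the receptor kinase MET read 7501, 10116 and 7580, EGFR read 2511, 2334 and 2767, and MYC read 4009, 3745 and 4503. CDKN2A, which encodes cell cycle inhibitors and is deleted in A549, read 109, 106 and 64.4 on an _x_at probe set, and its other 2 probe sets lay under the filter. Its neighbour CDKN2B lay under the filter. STK11, the kinase upstream of AMPK, read 344, 389 and 278, and the chromatin remodeller SMARCA4 read 218, 120 and 196. None of the 15 members above the filter differed 2-fold by their brightest probe set, and 2 did with the mean of probe sets. Among all genes compared, 6.14% did by the brightest probe set, from 26.1% in the dimmest bin to 0.158% in the brightest.

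Growth, energy and stress genes were bright and even. All 40 proliferation genes lay above the filter, 36 read at least 1000 in all lines, and none differed 2-fold. The replication clamp PCNA read 21156, 23810 and 25145, and the mitotic kinase CDK1 read 9338, 13624 and 12955. All 39 respiratory chain genes read at least 1000 in all lines, with medians of 14000, 15800 and 15200, and 0 of them differed 2-fold. By the brightest probe set no 2-fold difference was seen either in the 31 amino acid response genes, the 19 genes of the unfolded protein response, the 23 sterol and fatty acid genes, the 11 heat shock genes, the 17 translation factors and the 58 ribosomal protein genes above the filter. With the mean of probe sets, 1 amino acid response gene, 1 unfolded protein response gene and 1 translation factor passed 2-fold. ATF4, the transcription factor of the amino acid response, read 10785, 12505 and 14126, and its target ASNS read 6633, 7216 and 8557. SCD, the desaturase that makes oleate, read 24764, 24208 and 23553. Of 18 glycolytic genes 1 passed 2-fold, the hexokinase HK2 at 45.9, 104 and 88.9, and none did with the mean of probe sets. Over all genes compared 6.14% passed 2-fold by the brightest probe set, from 26.1% in the dimmest of 5 equal bins to 0.277% and 0.158% in the brightest 2. The lack of 2-fold differences therefore does not set these lists apart from other bright genes.

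Signalling groups covered a wide span of intensity with few differences between lines. Interferon-stimulated genes had a median of 265, 264 and 217. The RNA sensor OAS1 read 1839, 1609 and 1752 and ISG15, a ubiquitin-like modifier, read 304, 310 and 271, while MX1 and RSAD2 lay under the filter. Of 32 members above the filter 1 passed 2-fold, EPSTI1 at 69.4, 110 and 48.6, where 6.14% of all genes compared did. The count was 0 after quantile normalization and 3 with the mean of probe sets. The neutrophil chemokine CXCL5 read 22339, 20861 and 23196 and the prostaglandin synthase PTGS2 read 4720, 4035 and 5078, and none of 19 inflammatory genes passed 2-fold, against 1 with the mean of probe sets. The carbonic anhydrase CA12, on the hypoxia list, read 22629, 22308 and 22188, and 2 genes of that list passed 2-fold with the mean of probe sets. Single members passed 2-fold in the class II regulator CIITA (120, 63.3 and 38.6), the metallothionein MT3 (38.4, 57.8 and 115), the growth-restraining CDKN1C (182, 160 and 78.2), the p53 target SPATA18 (65.0, 119 and 189) and the gluconeogenic FBP1 (161, 98.2 and 73.5). On the adhesion list the pair was L1CAM (54.3, 80.4 and 138) and MMP2 (128, 180 and 71.7), and on the leukocyte list it was CSF1R (45.4, 41.7 and 99.6). Each of these genes had a reading under 200 in every line. Above the filter they were 1 of 14 HLA, 1 of 10 metallothionein, 1 of 9 imprinted, 1 of 25 p53 target and 1 of 6 glucose genes. The adhesion pair was 2 of 31 and CSF1R was 1 of 4. The share was 6.14% over all genes compared and 26.1% in the dimmest of 5 equal bins. With the mean of probe sets no gene of the HLA list, which holds CIITA, or of the imprinted list, which holds CDKN1C, passed 2-fold.

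Over all 12639 genes, the uninduced lines were more alike than a line was to itself with DOX. Log2 intensities of the 2 shCNOT3 lines correlated with those of shNTC at 0.982 and 0.981 (Pearson, across genes), and with each other at 0.983. Each uninduced array correlated with the DOX array of its own line at 0.976 in shNTC and 0.967 in both shCNOT3 lines. Between the 3 DOX arrays the correlations were 0.954 to 0.966. These are descriptions across genes, which are not independent replicates.

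Few genes differed 2-fold between uninduced lines. Between shCNOT3-1 and shNTC, 363 genes did (2.87%), 174 higher (1.38%) and 189 lower (1.5%) in shCNOT3-1. Between shCNOT3-2 and shNTC there were 407 (3.22%), 140 higher (1.11%) and 267 lower (2.11%) in shCNOT3-2. Between shCNOT3-2 and shCNOT3-1 there were 380 (3.01%), 137 higher (1.08%) and 243 lower (1.92%) in shCNOT3-2. The surplus of lower genes in shCNOT3-2 went with that array's low end, given above, and its part in these counts was not tested. After quantile normalization the splits were 172 higher and 208 lower against shNTC, and 168 higher and 186 lower against shCNOT3-1. With 50 added before log2 they were 52 higher and 93 lower against shNTC, and 42 higher and 64 lower against shCNOT3-1. The same pairs of lines differed at 1316 (10.4%), 1165 (9.22%) and 948 (7.5%) genes in their DOX arrays. In any pair of uninduced lines, 776 genes (6.14%) passed 2-fold.

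The differences lay mainly among dim genes. In the dimmest of 5 equal bins, with mean intensities of 35.8 to 162, the median range among the lines was 0.68 on the log2 scale and 26.1% of genes passed 2-fold. In the next bin, up to 447, it was 3.52%. In the brightest bin, from 2610 to 50800, the median range was 0.19 and 0.158% passed. Of the genes past 2-fold in the 3 pairs, 91.7%, 90.9% and 93.4% had a mean intensity below 200, as did 24.2% of all genes compared. With DOX the ranges were wider in every bin, at 35.4% past 2-fold in the dimmest and 8.07% in the brightest.

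**Figure D3:**
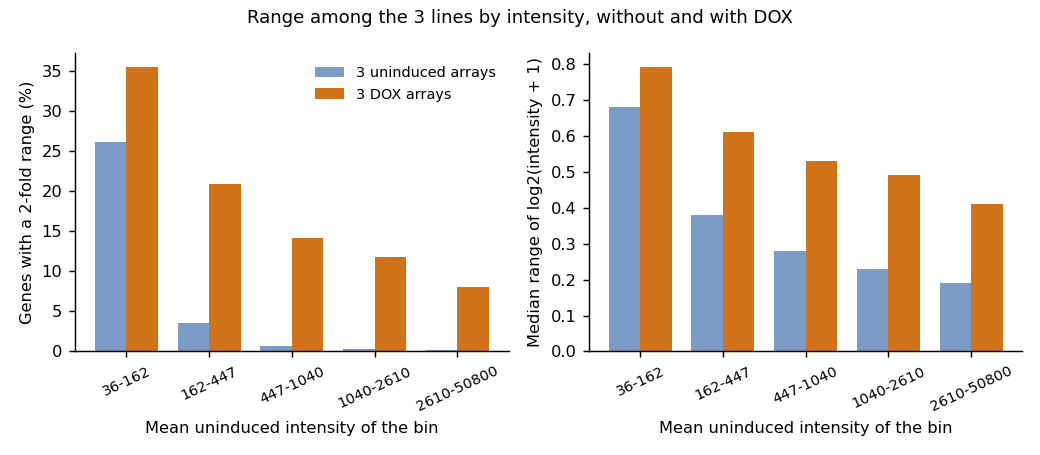
Range among the 3 lines in 5 equal bins of genes ordered by mean uninduced intensity, without DOX (blue) and with DOX (orange). Left, the percentage of genes with a range of at least 2-fold, and right, the median range of log2(intensity + 1). Without DOX the percentage drops from 26.1 in the dimmest bin to 0.158 in the brightest, and with DOX from 35.4 to 8.07.

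A second probe set for the same gene seldom repeated a 2-fold difference. For 6083 genes a second probe set also lay above the filter. Of these genes, 60, 61 and 59 passed 2-fold in the 3 pairs, in the order shCNOT3-1 minus shNTC, shCNOT3-2 minus shNTC and shCNOT3-2 minus shCNOT3-1. The second probe set passed 2-fold the same way in 6 (10.0%), 6 (9.84%) and 7 (11.9%) of them. It had the same sign in 53.3%, 42.6% and 47.5%, near an even split. Its median difference in the direction of the first was 0.09, -0.07 and -0.01 on the log2 scale. The share of second probe sets past 2-fold over all 6083 genes was not counted. The second probe set is by construction the dimmer of the pair and may read other transcript forms.

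Line differences were tested with limma on all 6 arrays, with 1 knockdown term shared by the DOX arrays of both shCNOT3 lines. That term takes up the mean of those arrays. The average level of the shCNOT3 lines against shNTC thus rested on their uninduced arrays and on both arrays of shNTC. The difference between the 2 shCNOT3 lines was averaged over their uninduced and DOX arrays. Each line difference in limma therefore also holds DOX readings and is not a difference at baseline alone. The residual spread held the DOX change in shNTC and the difference in DOX change between the shCNOT3 lines, not repeat readings. No gene passed an adjusted p of 0.05 in any of the 3 line contrasts (0 of 12639, 0.0%). At an unadjusted p under 0.05 there were 647 genes (5.12%) for shCNOT3-1 minus shNTC, 598 (4.73%) for shCNOT3-2 minus shNTC and 718 (5.68%) for shCNOT3-2 minus shCNOT3-1. The smallest adjusted p values in limma were 0.752, 0.258 and 0.636. The median standard error of a line difference was 0.26, 0.26 and 0.23 on the log2 scale, with 2 residual degrees of freedom. The 95% confidence interval of the line difference lay wholly within 2-fold for 8359 genes (66.1%), 8441 (66.8%) and 9174 (72.6%). For the remaining genes the interval reached 2-fold or more on at least 1 side.

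AGR2 and IKZF1 were among the genes with the smallest p. In AGR2 the line difference of shCNOT3-1 minus shNTC was -0.85 (SE 0.15, 95% confidence interval -1.17 to -0.52), with an unadjusted p of 0.0002 and an adjusted p of 0.752 in limma. The lymphoid transcription factor IKZF1 read 325, 110 and 80.6 uninduced and 387, 395 and 229 with DOX. Its line difference of shCNOT3-2 minus shNTC was -2.21 (SE 0.31, limma adjusted p = 0.258), and on the mean of its probe sets shNTC was not the highest line (-0.04). For evenly read genes the intervals were narrow. In VIM the difference of shCNOT3-1 minus shNTC had an interval of -0.47 to 0.13, and in NQO1 of -0.34 to 0.24.

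Most 2-fold differences between uninduced lines did not recur in the DOX arrays of the same lines, which share no array with them. Of the 363, 407 and 380 genes, 55 (15.2%), 57 (14.0%) and 45 (11.8%) passed 2-fold the same way with DOX, and 33, 42 and 28 passed it the opposite way. Over all genes compared, 5.21% were 2-fold higher and 5.21% lower with DOX in the first pair, 4.3% and 4.91% in the second and 3.54% and 3.96% in the third. The shares that recurred were thus above those of all genes in the 3 pairs, but dim genes passed 2-fold more often with DOX too, as the bins show. The sign was kept in 52.6%, 55.3% and 56.3%. The median size was 1.29, 1.31 and 1.33 on the log2 scale without DOX and 0.04, 0.08 and 0.13 in that direction with DOX. Over all 12639 genes the uninduced and the DOX difference of a pair correlated at 0.108, 0.0773 and 0.0594 (Pearson), as a description. Differences between DOX arrays also hold any effect of the knockdown.

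**Figure D4:**
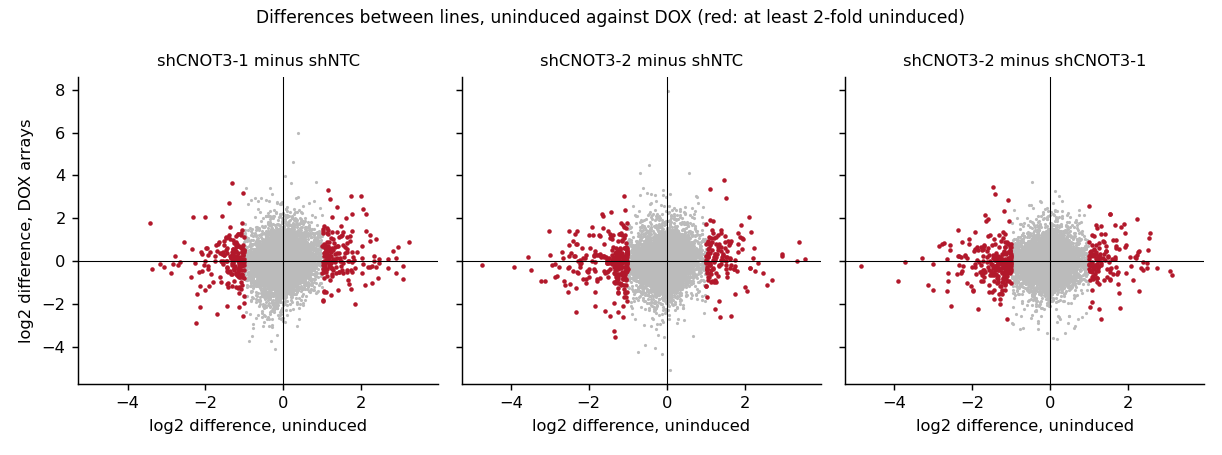
Log2 difference of each gene between 2 lines in the DOX arrays (vertical) against the same difference in the uninduced arrays (horizontal), for the 3 pairs of lines over 12639 genes. Genes past 2-fold in the uninduced arrays are red and scatter about 0 on the vertical axis, with medians of 0.04, 0.08 and 0.13 in the uninduced direction.

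A line stood 2-fold apart from both others at few genes. shNTC did so at 39 genes in the higher (0.309%) and 74 in the lower direction (0.585%), shCNOT3-1 at 31 (0.245%) and 79 (0.625%), and shCNOT3-2 at 22 (0.174%) and 129 (1.02%). With DOX the line also stood 2-fold apart the same way at 0 and 7, 1 and 6, and 0 and 10 of these. Over all genes, the DOX array of shNTC stood apart at 1.72% on the higher and 2.32% on the lower side. For shCNOT3-1 these shares were 0.965% and 1.75%, and for shCNOT3-2 they were 0.649% and 1.69%. By the naming rule, 8 genes per line and direction with a bright side of at least 200 were named, 48 in all, of which 42 passed 2-fold. With DOX, 16 of the 48 lay the same way from both other lines and 3 of them passed 2-fold. With only 3 lines, a gene often lies so whatever its uninduced reading. The share of all genes that did was not counted, so the 16 are not read as differences that lasted.

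In shNTC the named genes on the higher side were led by CYP3A4, a drug-metabolizing cytochrome P450, at 204, 39.7 and 40.7. The protease PCSK7 read 331, 80.1 and 81.7, and C6orf15 read 206, 53 and 25.7. With DOX these 3 genes read 230, 345 and 163, then 71.7, 63.5 and 169, and then 237, 287 and 209, and shNTC stood apart in none of them. The others were DMBT1, IKZF1, S1PR4, OSBP2 and PDLIM7. On the lower side the arginyl-tRNA synthetase RARS1 read 2757, 9822 and 9280 without DOX and 8158, 6576 and 2794 with it, so that the low line changed. The zinc finger gene ZNF574 read 80.3, 225 and 318, and 109, 343 and 222 with DOX, and it alone among the 16 named genes of shNTC stood 2-fold apart in both states. TMA16, a ribosome biogenesis factor, read 379, 822 and 885, and 269, 499 and 565 with DOX, lowest in shNTC in both. The rest were ZNF579, NUDT3, CHRNB2, SANBR and ZBTB7B.

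In shCNOT3-1 the kallikrein protease KLK4 led the higher side at 59.7, 204 and 52.5, and ERN2, a stress sensor of the endoplasmic reticulum in mucous epithelia, read 87.8, 388 and 120. With DOX, ERN2 was again highest in shCNOT3-1 by this _x_at probe set, and read 75.9 in shNTC and 209 in shCNOT3-2. A second probe set of ERN2, above the filter, read 71.7, 127 and 138, and 90.7, 127 and 143 with DOX. It was highest in shCNOT3-2 in both states. ADAM33, HTR4, FOXD3-AS1, AXIN1, WFDC12 and APOL6 completed the side. On the lower side the long non-coding RNA MIAT read 282, 47.4 and 250. PRKACA, the catalytic subunit of protein kinase A, read 653, 286 and 607, and with DOX 384, 411 and 286, where shCNOT3-1 was no longer lowest. The rest were MAPK8IP3, TRMT10A, PC, HOOK2, DECR2 and CSRNP1, the last short of 2-fold. None of the 16 named genes of shCNOT3-1 stood 2-fold apart with DOX.

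In shCNOT3-2 the higher side was led by the tight junction claudin CLDN19 at 119, 57.7 and 284, with RASSF9 at 384, 432 and 897 and the phosphatase subunit PPP2R2D at 215, 207 and 435. CTNNBIP1, TVP23C, P3H3, SPATA24 and CNTLN, the other 5, fell short of 2-fold from shNTC, and P3H3 and CNTLN also from shCNOT3-1. The lower side was led by PIDD1, a scaffold that activates caspase-2, at 238, 277 and 46.5, and at 180, 314 and 73.9 with DOX. The replication-linked histone gene H2AC14 read 337, 281 and 130, and 427, 288 and 43.3 with DOX. These 2 genes stood 2-fold apart in both states, and in both shCNOT3-2 was the lowest. A second probe set of PIDD1, under the filter, read 48.4, 18.1 and 66.3. NEK2-DT, ST3GAL3, RELT, ZNF875, VAV1 and GLI3 made up the rest.

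In all, 24 genes stood 2-fold apart the same way in both states, 7 of them lower in shNTC. Most were dim. EEF2KMT, a methyltransferase of elongation factor EEF2, read 49.1, 199 and 214 on an _x_at probe set, and 62.3, 525 and 265 with DOX. The basal keratin KRT15 read 18.8, 65.1 and 54.3, and 20.6, 175 and 297 with DOX. The lipid-binding APOL1 read 27.7, 74.2 and 62.2, and 46.5, 121 and 99.7 with DOX. In each of these, shNTC was lowest in both states. The 1 gene on a higher side was PRKCB, protein kinase C beta, in shCNOT3-1, at 53.8, 121 and 27.1, and 44.1, 122 and 59.7 with DOX. CGNL1, a junction protein, was lower in shCNOT3-1 at 91.0, 27.0 and 106, and the syndecan SDC3 was lower in shCNOT3-2 at 131, 62.6 and 25.3. A second probe set of CGNL1, under the filter, read 27.7, 77.4 and 103, lowest in shNTC. That of SDC3, above the filter, read 70.3, 130 and 49.3, with a difference from shNTC of -0.5 on the log2 scale in shCNOT3-2. The genes named in this paragraph were singled out after their values were seen.

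Among the brightest 2 bins, 11 of 5056 genes (0.218%) passed 2-fold in any pair of uninduced lines, and 503 (9.95%) did among the DOX arrays. By pair of uninduced lines there were 6, 6 and 1. The DOX array differed 2-fold from the uninduced array of its own line at 43 of these genes in shNTC, 170 in shCNOT3-1 and 124 in shCNOT3-2. The 11 genes were named after their values were seen, apart from RARS1 and NUDT3, which the rule had named.

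After RARS1, the widest uninduced range was in YARS2, the mitochondrial tyrosyl-tRNA synthetase, at 2550, 1608 and 944, and at 1607, 1274 and 3580 with DOX. Its lowest line without DOX was thus its highest with DOX. BCL7C, a chromatin remodeller subunit, read 1806, 941 and 757, and 1171, 1030 and 492 with DOX, with shNTC highest and shCNOT3-2 lowest in both. PNRC1, a nuclear receptor coactivator linked to decapping, read 2211, 944 and 1571, and 1583, 3560 and 3376 with DOX, where the order turned. STIP1, the co-chaperone that joins HSP70 and HSP90, read 3197, 7181 and 5032, and 4032, 6087 and 6404 with DOX, with shNTC lowest in both. MYL12A, a myosin light chain, read 5433, 11750 and 7815, and 4303, 4878 and 6986 with DOX, also with shNTC lowest in both. The other 5 were NUDT3, SDF4, THRAP3, PMS2P3 and NUB1.

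Of the 11 bright genes, 7 had a second probe set above the filter, and its range was under 2-fold in each. The diphosphoinositol phosphatase NUDT3 ranged over 1.23 on the log2 scale by its probe set and over 0.22 by the second, which read 866, 796 and 746. SDF4, a calcium-binding Golgi protein, ranged over 1.23 and 0.29, STIP1 over 1.17 and 0.39, and MYL12A over 1.11 and 0.12. THRAP3, PMS2P3 and NUB1 ranged over 1.02, 1.02 and 1.01, and over 0.54, 0.19 and 0.12 by the second. The probe set used for PMS2P3, a mismatch repair pseudogene, is of the _x_at type and can read its relatives. RARS1, YARS2, BCL7C and PNRC1 had no second probe set above the filter.

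**Figure D5:**
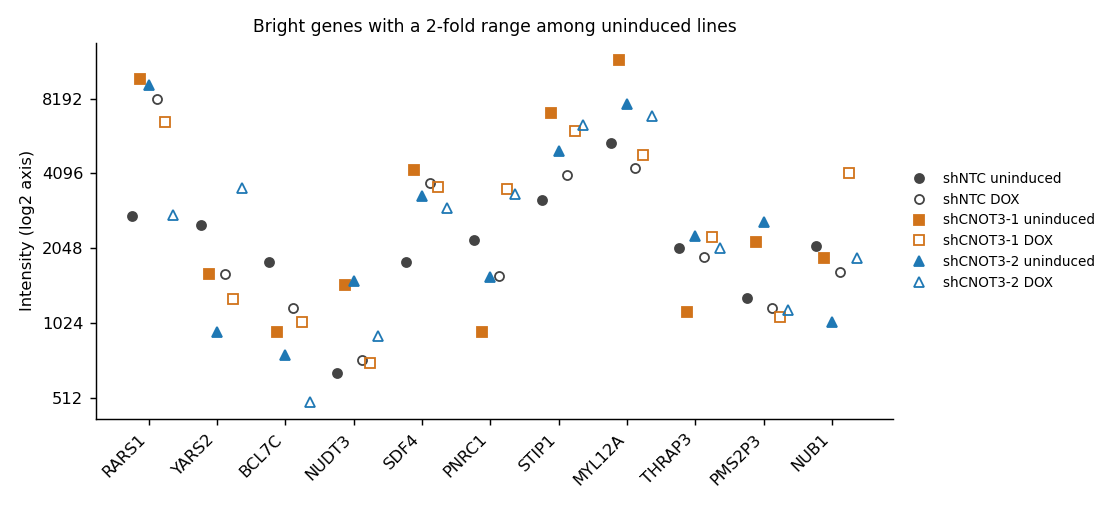
Intensity of the 11 bright genes with at least a 2-fold range among uninduced lines, on a log2 axis, with filled symbols for uninduced and open symbols for DOX arrays. The open symbols of a line often lie far from its filled ones, as for RARS1, where shNTC was lowest without DOX at 2757 and highest with DOX at 8158.

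CNOT3 itself was not lower in the uninduced shCNOT3 lines by its brightest probe set, which read 178, 227 and 228. The log2 difference from shNTC was 0.35 in shCNOT3-1 and 0.36 in shCNOT3-2. The limma line differences were 0.60 (95% confidence interval -0.30 to 1.5, adjusted p = 0.887) and 0.21 (-0.69 to 1.11, adjusted p = 0.965). That model used 1 knockdown term for both hairpins, while CNOT3 read 81.9 in shCNOT3-1 and 46.9 in shCNOT3-2 with DOX. Its intervals therefore mix the baseline with unequal knockdown and cannot say whether CNOT3 was lower before induction. The second probe set read 259, 127 and 195, with differences of -1.02 and -0.41, opposite in sign to the first. A further probe set, under the filter, read 4.54, 85.5 and 43.6. CNOT3 was thus read as higher or lower in the uninduced hairpin lines depending on the probe set, at intensities of at most 259.

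The other CCR4-NOT subunits were within 2-fold among lines by their brightest probe sets. All 11 subunits, CNOT3 included, lay above the filter and none differed 2-fold by its brightest probe set, while 2 did with the mean of probe sets. The share over all genes compared was 6.14% by the brightest probe set, from 26.1% in the dimmest bin to 0.158% in the brightest. The deadenylase CNOT7 read 7755, 10912 and 9336, and the scaffold CNOT1 read 3751, 4619 and 4331. The deadenylase CNOT6L read 1111, 933 and 755, with the widest range of the list at 0.56. CNOT2, the partner of CNOT3 in the complex, read 2294, 2096 and 2897. CNOT7 had a limma interval for shCNOT3-1 minus shNTC of -0.03 to 0.75, from the same model, which also holds DOX readings.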

How the data were processed

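The values were probe set intensities on a linear scale, as deposited by the authors, from total RNA of A549 cells on Affymetrix arrays. The submitters' processing notes name MAS5 as the tool, and its settings are not stated in the sources used here. Intensities were taken to log2 after adding 1, and a gene was represented by its brightest probe set annotated to 1 gene, by mean over all 6 arrays. Of 54675 probe sets, 41097 had 1 gene, 1801 several and 11777 none listed, and symbols of 41043 were updated to RefSeq. Genes under the median of all non-control probe sets were left out of comparisons.

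Genes at least 2-fold apart were counted between the 3 uninduced arrays, and differences of the same lines in the DOX arrays were set beside them. Line differences were tested with limma 3.58.1 in R 4.3.3 on all 6 arrays, with line and 1 knockdown term, an intensity trend in the prior variance, 2-sided, Benjamini-Hochberg adjustment over 12639 genes and a threshold of 0.05. The 2 residual degrees of freedom were joined by a median prior of 7.61. The labels describe no repeat cultures. The p-values therefore reflect only how far these arrays spread, which may be technical or a response to DOX or to a hairpin. The number of arrays limits the precision. The procedure was run on simulated data with independent noise, added line differences and no DOX or knockdown effect. That run does not show how the procedure performs on these arrays.

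The text names CNOT3, the 20 brightest genes outside ribosomal proteins and translation factors, and per line the 8 highest and 8 lowest genes by the smaller of the differences from the other lines, with a bright side of at least 200. It adds the brightest members of each list, members past 2-fold and dim defining markers. The comparisons, lists and members were chosen with earlier results of these data known. Second probe sets and bright genes were examined after seeing the data. Promoters are from RefSeq (GRCh38.p14). Alternatives covered scaling, added constant, filter, probe set, variance prior, model terms and each line left out. Python 3.11.15, pandas 2.3.3 and matplotlib 3.10.9 were used for tables and figures.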

Additional observations from a re-analysis of the deposited data

How the results depend on the processing

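The 2-fold counts depended on how dim genes were handled. In the order shCNOT3-1 minus shNTC, shCNOT3-2 minus shNTC and shCNOT3-2 minus shCNOT3-1, the uninduced counts of 363, 407 and 380 became 128, 145 and 106 with 50 added before log2, 3349, 3361 and 3380 with no filter, and 38, 36 and 24 with a filter at an intensity of 200. At 3-fold they were 105, 126 and 118. The counts that recurred with DOX, 55, 57 and 45, became 11, 7 and 4 with 50 added, 758, 744 and 764 with no filter, and 6, 5 and 2 with the filter at 200. Quantile normalization, a filter on the uninduced arrays alone, the mean of all probe sets of a gene, and the brightest probe set in the uninduced arrays kept these counts within 1.5 times. The count of 11 bright genes was 22 with the mean of probe sets, an alternative chosen after seeing the data.

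No line contrast in limma gave an adjusted p under 0.05 in any alternative run, with the smallest adjusted p between 0.127 (without shCNOT3-1) and 1.0. Unadjusted counts ran from 326 to 1080. Of the 48 named line genes, 47 stayed on their side of 2-fold after quantile normalization. With the mean of probe sets 23 did, 17 fell short and 8 turned direction. All of the 23 except SPATA24 and CNTLN had a single probe set, so their values could not move. SPATA24 and CNTLN were short of 2-fold either way. Thus no named gene past 2-fold with several probe sets stayed past it. In the turned genes the smaller difference became -0.04 for IKZF1, -0.77 for OSBP2 and -0.15 for PDLIM7 (higher in shNTC by 1 probe set), 0.56 for SANBR (lower), -0.08 for KLK4 and -0.23 for HTR4 (higher in shCNOT3-1), and 0.1 for ST3GAL3 and 0.2 for GLI3 (lower in shCNOT3-2). The cause was not tested. The counts of list members past 2-fold depended on the probe set: with the mean of probe sets 22 lists moved by over 1.5 times or to or from 0 and 13 did not, and after quantile normalization 2 did, the mesenchymal and interferon-stimulated lists, each from 1 to 0, and 33 did not. With the mean of probe sets the lists that went from 1 or more to 0 were glycolysis, epithelial, mesenchymal, alveolar type 2, endothelial, imprinted and HLA genes. The line term pairs the uninduced and the DOX array of a line, and the alternative with a DOX term pairs arrays of different lines by DOX state and gave 0 genes at an adjusted p under 0.05 in limma, with 902, 734 and 465 at an unadjusted p under 0.05. Signal near background limits what can be said of genes under an intensity of about 200.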
